A study of Homo sapiens with 73 samples.

Results

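The genes described here are 10 genes that neurons and neuroendocrine cells are known for, followed by symbol through an evolution experiment on the Ewing sarcoma cell line CHLA-9: NCAM1, L1CAM, NGFR, NEFL, NEFM, INA, UCHL1, ENO2, VGF and NOS1. All 10 symbols were found among the 36233 genes of the deposited table, and 9 passed the filter on low values, a mean of at least 10. CHLA-9 is an established line that carries the EWSR1-FLI1 fusion, and every library came from it. The treated arm was 7 lineages, R1 to R7, exposed for 5 days at a time to VDC (vincristine, doxorubicin and cyclophosphamide) or EC (etoposide and cyclophosphamide) at the concentration giving 70% effect, in alternation. After each exposure the cells regrew without drug to near confluency, and RNA was then taken. The DMSO arm was 3 lineages, R8 to R10, carried through the same time points with the solvent alone, and the untreated parental line gave 1 library. VDC preceded the odd time points and EC the even ones, up to time point 10. The treated arm gave 49 libraries and the DMSO arm 23. Time point 2 had DMSO libraries only, time point 3 treated libraries only, and time point 7 a single DMSO library, of R8. Each lineage was sampled repeatedly, so the lineage, not the library, is the replicate wherever the design allowed it. The labels do not say whether the lineages began as separate cultures, so p-values measure the spread between these lineages of 1 cell line.

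Ewing sarcoma cells are small round cells without a settled normal counterpart, and some of them express genes of neurons or neuroendocrine cells, which pathologists use as stains. NCAM1 (CD56) and L1CAM are adhesion molecules of the immunoglobulin family that hold neurons to each other and guide their axons. NGFR is the p75 receptor, which binds neurotrophins such as nerve growth factor. NEFL and NEFM, the light and medium neurofilament chains, and INA, alpha-internexin, build the intermediate filaments of axons. UCHL1 is a ubiquitin hydrolase abundant in neurons, ENO2 is the enolase isoform of neurons and neuroendocrine cells, and NOS1 is the neuronal enzyme that makes nitric oxide from arginine. VGF is the precursor of secreted peptides, stored in granules and induced by nerve growth factor in rat PC12 cells.

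Promoter sequence was looked up because VGF and NOS1 were high in all 6 late libraries described below. Promoter entries of RefSeq (GRCh38.p14) were examined for 6 of the 10 genes. In these entries 4 motifs were searched on both strands in the 250 bases before each start. The other genes were not searched, whether or not RefSeq holds entries for them. The CRE motif TGACGTCA, found in 1.65% of 35116 promoters, occurred in VGF alone among the 6 genes, 79 bases before the start. The E-box CACGTG, found in 6.34% of promoters, also occurred in VGF, 54 bases before the start. The AP-1 motif TGAGTCA, or TGACTCA on the other strand, found in 4.20% of promoters, occurred in NOS1 at 111 bases and in ENO2 at 94 bases before the start. The repeat GGAAGGAA, or TTCCTTCC on the other strand, found in 3.06% of promoters, occurred in none of the 6 genes, and UCHL1, INA and L1CAM held none of the 4 motifs. The matches did not overlap each other, and a match is a string of letters, not a bound site. The 3 promoters with a match are shown 5′ to 3′ with the motifs in capitals: VGF at chr7:101165570-101165819 on the minus strand, NOS1 at chr12:117309411-117309660 on the minus strand, and ENO2 at chr12:6914330-6914579 on the plus strand. In the GENCODE v29 annotation the NOS1, ENO2, UCHL1 and L1CAM windows lie inside the annotated gene, so they stand before an internal start.
VGF: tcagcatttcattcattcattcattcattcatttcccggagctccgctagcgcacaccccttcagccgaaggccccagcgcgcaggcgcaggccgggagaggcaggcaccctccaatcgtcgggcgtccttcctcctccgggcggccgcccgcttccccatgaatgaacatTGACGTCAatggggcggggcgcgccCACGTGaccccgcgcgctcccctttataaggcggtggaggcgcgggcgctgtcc
NOS1: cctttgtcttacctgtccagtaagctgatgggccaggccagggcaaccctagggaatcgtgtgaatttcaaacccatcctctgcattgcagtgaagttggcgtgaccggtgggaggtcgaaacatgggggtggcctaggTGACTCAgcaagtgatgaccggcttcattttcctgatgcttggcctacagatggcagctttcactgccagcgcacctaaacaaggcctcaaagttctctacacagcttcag
ENO2: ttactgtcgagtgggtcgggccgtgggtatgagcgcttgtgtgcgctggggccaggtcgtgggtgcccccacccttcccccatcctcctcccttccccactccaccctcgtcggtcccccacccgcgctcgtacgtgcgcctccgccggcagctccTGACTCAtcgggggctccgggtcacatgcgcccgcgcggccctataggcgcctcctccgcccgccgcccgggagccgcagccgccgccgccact

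The deposited values are quantile-normalized counts per gene, so library depth is unknown, and levels are not compared between genes because the values are not per length. The values of a library added up to 13583520 if it was treated, and to 13582508 if it was DMSO or parental. The number of genes at a library's lowest value ran from 13214 to 16107. The label of the line was checked on Ewing genes: EWSR1 ran at 1671 to 3176, FLI1 at 794 to 1351, NR0B1 at 840.4 to 5544 and NKX2-2 at 4.88 to 272. CD99, the usual surface marker, did not exceed 2.31. None of the 31 listed genes annotated on both the X and Y chromosomes reached 10 in any library, CD99 among them. The setting for strand in the counting is not given, and 6 of the 10 genes have an annotated gene overlapping them on the opposite strand, none of which is listed in the table. Of the epithelial markers EPCAM and CDH1 did not exceed 4.52 and 6.07, whereas KRT18, KRT8, ESRP1 and CLDN4 reached 1164, 396, 213 and 62.9. Of the skeletal muscle markers MYOD1 and MYOG did not exceed 3.13 and 4.71, and DES reached 82.6.

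Several libraries stood apart from the others of their arm. In R1, the library at time point 1 had UCHL1 at 1135 against 482 to 647 in the other treated lineages, and NOS1 at 4.18 against 22.9 to 37.2. The R1 library at time point 3 had L1CAM at 0.0271, the lowest value of that library, against 37.1 to 105 in the others. The summed level of the 13 mitochondrially encoded genes in that library was 486847, against 75467 to 278414 in the other treated libraries, leaving out the last of R1 and of R2. Late in the experiment, the last libraries of treated R1 (time point 9) and R2 (time point 10), DMSO R9 at time points 8 and 9 and DMSO R10 at time points 9 and 10 were set apart. Of the 9 tested genes, 6 to 8 lay outside the range of the 48 other libraries from time point 4 on in 5 of these 6 libraries. In DMSO R10 at time point 9 only VGF and NOS1 did, 2 of 9. The share of all genes outside that range was not computed, so these counts show nothing particular to the 9 genes. Slopes and late differences are also given without these libraries.

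**Figure D1:**
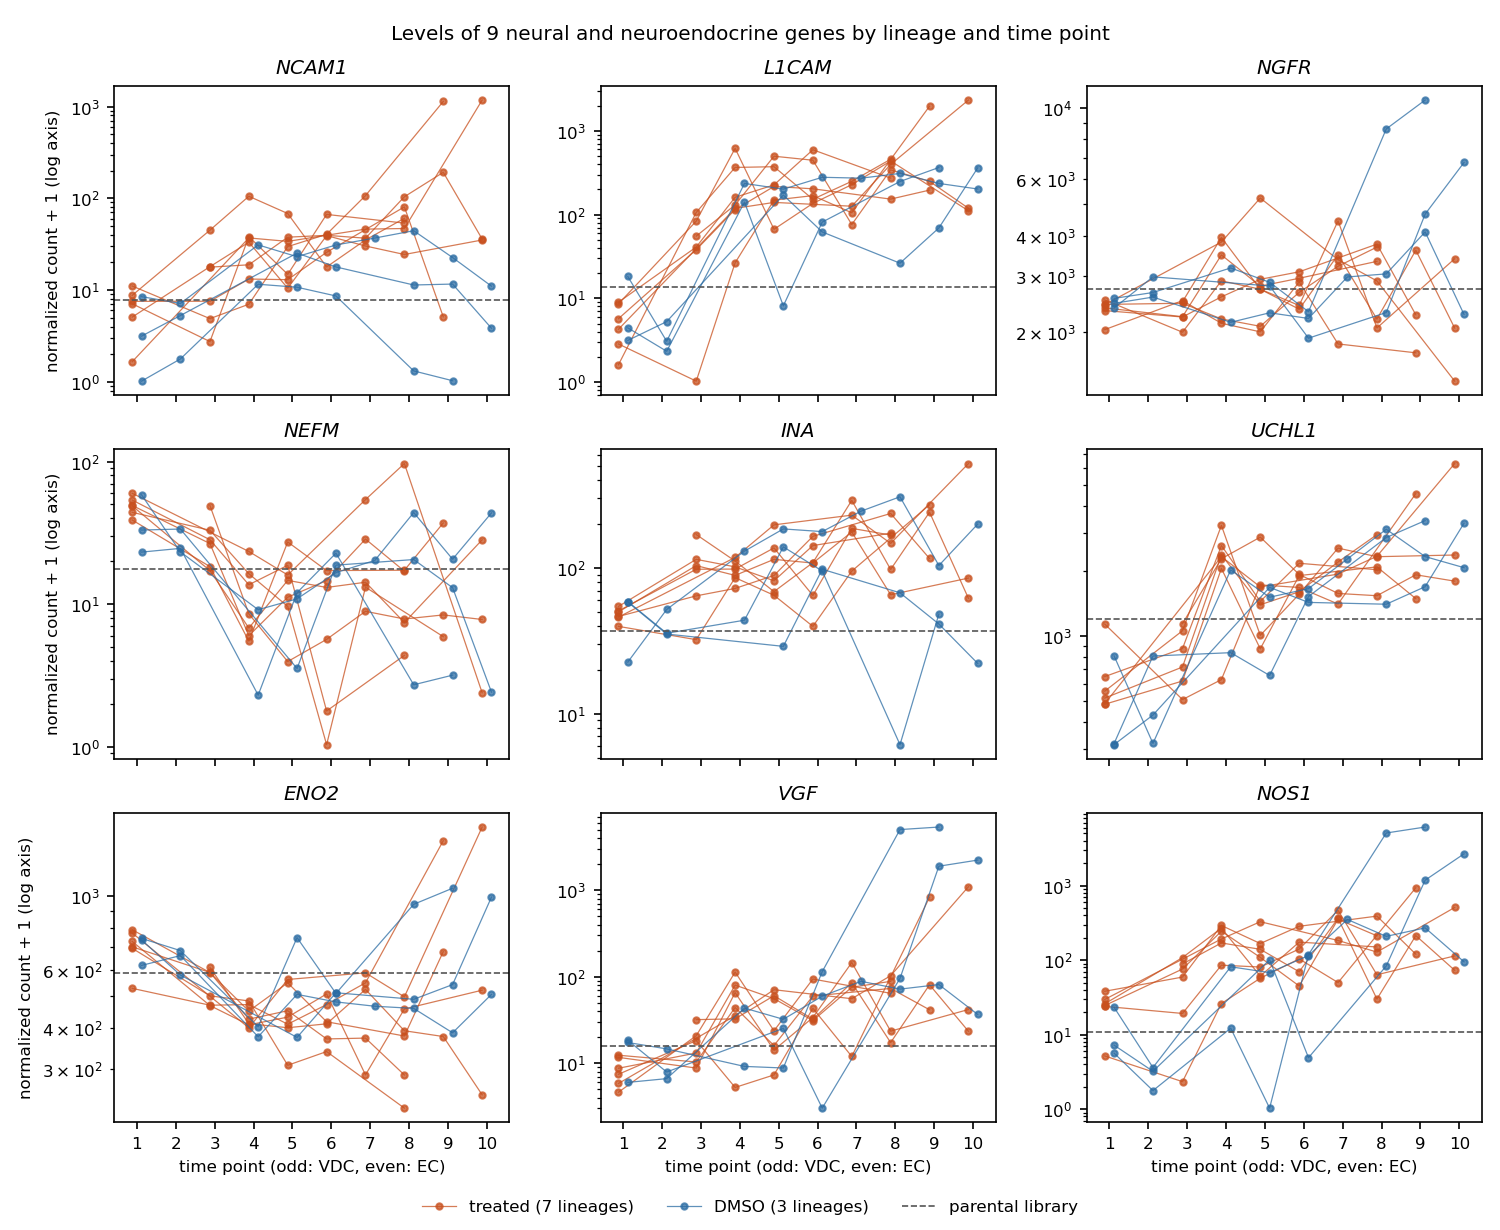
Levels of the 9 tested genes by time point, as normalized count plus 1 on a log axis; each line is a lineage, orange for the 7 treated and blue for the 3 DMSO lineages, and the dashed line is the parental library. L1CAM and NOS1 climb and NEFM and ENO2 drop between time points 1 and 4 in both arms, and UCHL1 climbs except in treated R1. NCAM1 is high in the last libraries of treated R1 and R2, while VGF and NOS1 are high in DMSO R9 at time points 8 and 9 and DMSO R10 at time points 9 and 10.

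Between time points 1 and 4, most of these genes changed in the treated lineages. L1CAM, NOS1, VGF, NCAM1, UCHL1 and INA rose, and NEFM and ENO2 fell. L1CAM rose most, 33.9-fold on the scale of log2(value + 1). These changes are counted from time point 1, not from the parental line. The 1 parental library had L1CAM at 12.8, NOS1 at 9.89, VGF at 14.6, NCAM1 at 6.87 and INA at 35.7. Its UCHL1, 1196, lay above all treated libraries of time point 1 (482 to 1135), and its NEFM, 16.6, below them (37.9 to 58.9). ENO2 was 585 and NGFR 2719 in it. The comparison was made within the 6 treated lineages sequenced at both time points and was added after the data were seen. In it 6 of 9 tested genes rose and 2 fell at an adjusted p under 0.05 (limma on paired differences, Benjamini-Hochberg over 14565 genes), where 17.1% of all genes were called, 9.19% upward and 7.9% downward.

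L1CAM stood at 25.6, 118, 160.0, 114, 617 and 365 in R1, R2, R3, R4, R6 and R7 at time point 4. At time point 1 the same lineages had 1.85, 3.27, 8.00, 4.72, 7.60 and 0.613, in that order. Every lineage was higher at time point 4, the ranges did not overlap, and the log2 difference was 5.08 ± 0.54 (SE, n = 6; adjusted p = 0.00464). DMSO lineages R8 and R9 moved the same way, to 235 and 140.0 at time point 4, against 17.2 and 3.44 at time point 1. NCAM1, the other adhesion molecule, had 6.01 to 104 at time point 4 against 0.655 to 10.1 at time point 1. It was higher at time point 4 in 5 of 6 lineages and lower in R1, with a log2 difference of 2.23 ± 0.63 (adjusted p = 0.046). NCAM1 in DMSO R8 was 30.0 at time point 4 against 7.48 at time point 1, and in R9 10.6 against 0.0167, the lowest value of that library.

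The neurofilament genes did not move together. NEFM had 4.49 to 22.4 at time point 4 against 37.9 to 58.9 at time point 1, without overlap, and fell by 2.25 ± 0.31 on the log2 scale in 6 of 6 lineages (adjusted p = 0.00763). INA had 71.4 to 117 at time point 4 against 38.7 to 53.5 at time point 1, also without overlap, and rose by 0.97 ± 0.14 in 6 of 6 lineages (adjusted p = 0.00901). In DMSO, NEFM was lower at time point 4 in both lineages, at 8.12 and 1.29 against 57.4 and 22.1, while INA was higher in R8 (129 against 21.6) and lower in R9 (42.8 against 57.8). NEFL could not be followed: it was at the lowest value of the library in 35 of 73 libraries and never exceeded 5.97.

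Of the enzymes, NOS1 rose and ENO2 fell in 6 of 6 lineages. NOS1 had 25.1, 191, 267, 290.3, 84.5 and 243 at time point 4 in R1, R2, R3, R4, R6 and R7, against 4.18, 28.7, 24.9, 37.2, 22.9 and 23.6 at time point 1. Its log2 difference was 2.75 ± 0.22 (adjusted p = 0.00173), and in DMSO R8 and R9 it was 80.3 and 11.2 at time point 4 against 22.3 and 4.64. ENO2 had 399 to 481 at time point 4 against 525 to 792 at time point 1 and fell by 0.67 ± 0.11 (adjusted p = 0.0123), with 375 and 402 against 617 and 745 in DMSO. UCHL1 had 2056 to 3254 at time point 4 in R2, R3, R4, R6 and R7 against 482 to 647 at time point 1, whereas R1 had 627 against 1135. Over the 6 lineages UCHL1 rose by 1.71 ± 0.41 (adjusted p = 0.0309), and in DMSO it was 2023 and 836 against 808 and 316. VGF had 4.25 to 112 at time point 4 against 3.62 to 11.4 at time point 1, lower in R1 alone, and rose by 2.37 ± 0.56 (adjusted p = 0.0303). In DMSO VGF was 42.4 against 5.00 in R8 and 8.19 against 16.4 in R9. NGFR, the receptor, had 2129 to 3816 at time point 4 against 2034 to 2519 at time point 1, with a log2 difference of 0.24 ± 0.11 that did not pass the test (adjusted p = 0.139).

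**Figure D2:**
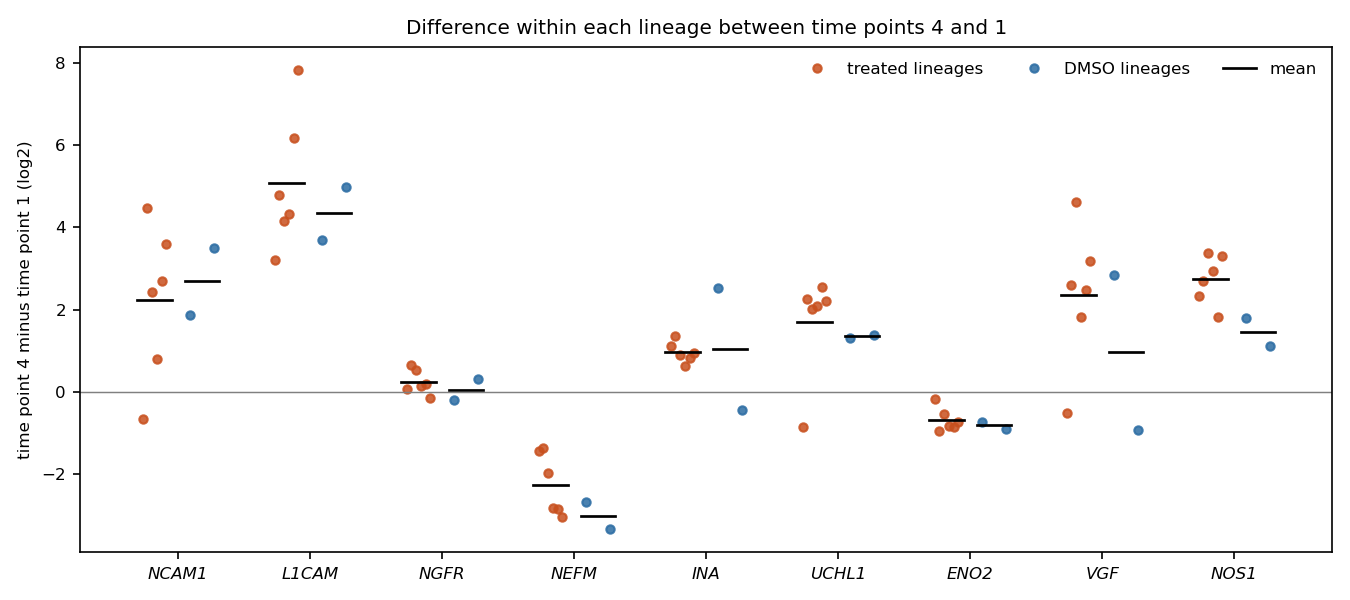
Log2 difference between time points 4 and 1 within each lineage for the 9 tested genes; points are lineages, orange for the 6 treated and blue for the 2 DMSO lineages sequenced at both times, and bars are the mean of each arm. All 6 treated points lie above 0 for L1CAM, INA and NOS1 and below 0 for NEFM and ENO2, and the DMSO points lie on the same side except for INA and VGF in R9; for NGFR 5 of 6 treated points lie above 0 and the DMSO points lie on both sides.

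L1CAM, NEFM, INA and NOS1 passed whichever of the 6 lineages was left out, ENO2 in 4 of 6 cases, and NCAM1, UCHL1 and VGF only when R1 was. The number of calls was 8 without R1, 4 without R2 or R4, and 5 without R3, R6 or R7, where 373 to 7156 of all genes were called. The 2 DMSO pairs and the 6 treated pairs were not compared by a test, and a change in the cells and a difference between the making of early and later libraries cannot be told apart. The summed level of the mitochondrially encoded genes moved with the step, at 87642 to 170287 in treated libraries of time point 4 against 125949 to 278414 at time point 1, and 12 of its 13 genes fell. The summed level of the 9 epithelial markers also moved, at 56.5 to 782 against 38.0 to 67.4, and 2 of 4 tested genes rose, KRT18 and ESRP1. Of 11 tested muscle and fibroblast markers 4 rose and 2 fell, and of 6 Schwann and glial markers 1 rose and 1 fell. The share called was 17.1% over all genes. The part of these changes in the result was not tested.

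Over all their time points, the treated lineages gained NCAM1, L1CAM, INA, UCHL1 and VGF and lost NEFM. Slopes were fitted per lineage, and 5 of 9 tested genes rose and 1 fell at an adjusted p under 0.05 (limma on the lineage slopes), where 39.4% of all genes were called, 15.6% upward and 23.8% downward. The median slope of the 9 genes was 0.24 log2 units per time point, against -0.01 for all genes tested. UCHL1 rose by 0.24 ± 0.04 per time point (SE, n = 7 lineages; adjusted p = 0.00288) and NCAM1 by 0.47 ± 0.09 (adjusted p = 0.00501), both in 7 of 7 lineages. L1CAM rose by 0.70 ± 0.24 in 7 of 7 lineages (adjusted p = 0.0404). INA rose by 0.19 ± 0.05 (adjusted p = 0.0177) and VGF by 0.42 ± 0.13 (adjusted p = 0.0261), each in 6 of 7 lineages. NEFM fell by 0.24 ± 0.08 (adjusted p = 0.0358), in 6 of 7 lineages. R5, whose first library is from time point 3, had the lowest slope for L1CAM, INA, UCHL1, VGF and NOS1. For NOS1 the slope was 0.36 ± 0.15 (adjusted p = 0.0742). With lineage as a block over all 72 libraries it was 0.36 (adjusted p = 0.0021), but that fit leaves out the spread of slopes between lineages. NGFR (0.01 ± 0.03) and ENO2 (-0.05 ± 0.04) did not pass.

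The time course of UCHL1 in treated libraries shows where the gain lay. Its medians were 534, 795, 2331, 1445, 1791, 1935, 2209.8, 1921 and 2372 at time points 1, 3, 4, 5, 6, 7, 8, 9 and 10. From time point 4 on, the median stayed between 1445 and 2372. It dropped between time points 4 and 5, and after that rose up to time point 10 apart from a dip at time point 9. L1CAM medians at the same time points were 4.00, 47.2, 129, 216, 185, 125, 368, 249 and 118. ENO2 medians ran the other way early, at 716, 543 and 424 at time points 1, 3 and 4, and lay between 384 and 679 after that. Without time point 1, none of the 9 genes passed in either arm, and over time points 4 to 10 alone, an alternative added after seeing the data, none passed either. The treated slope over time points 4 to 10 was 0.37 for NCAM1, 0.26 for L1CAM and 0.11 for UCHL1, with adjusted p from 0.234 to 0.337.

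NCAM1 and UCHL1 passed whichever of the 10 lineages was left out, INA in 9 of 10 cases, VGF in 5, NEFM in 4 and L1CAM in 3. The number of genes called was 2 without R2 and 3 without R1, R3, R4 or R7. Without the last libraries of R1 and R2, 5 genes were called. The share of all genes called in these refits is not given here, so the counts are not set against it. L1CAM, at 0.68 (adjusted p = 0.0626), and NEFM, at -0.21 (0.0886), no longer passed, and ENO2, at -0.10 (0.0143), did. NCAM1, INA, UCHL1 and VGF still passed, at 0.40, 0.16, 0.21 and 0.32. Beside these genes, all 13 mitochondrially encoded genes fell in both arms, with a median slope of -0.14 in treated and -0.22 in DMSO lineages. Over all genes, 39.4% were called in treated and 9.87% in DMSO lineages. Of 4 tested epithelial markers 3 rose in treated and 1 in DMSO lineages. Of 11 tested muscle and fibroblast markers 5 rose in treated and 1 in DMSO lineages. Of 11 tested Ewing identity genes 2 rose and 2 fell in treated lineages, and 1 rose and 2 fell in DMSO lineages, while the 6 tested Schwann and glial markers and the 1 tested blood cell marker passed in neither arm. The part of these lists in the slopes was not tested.

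**Figure D3:**
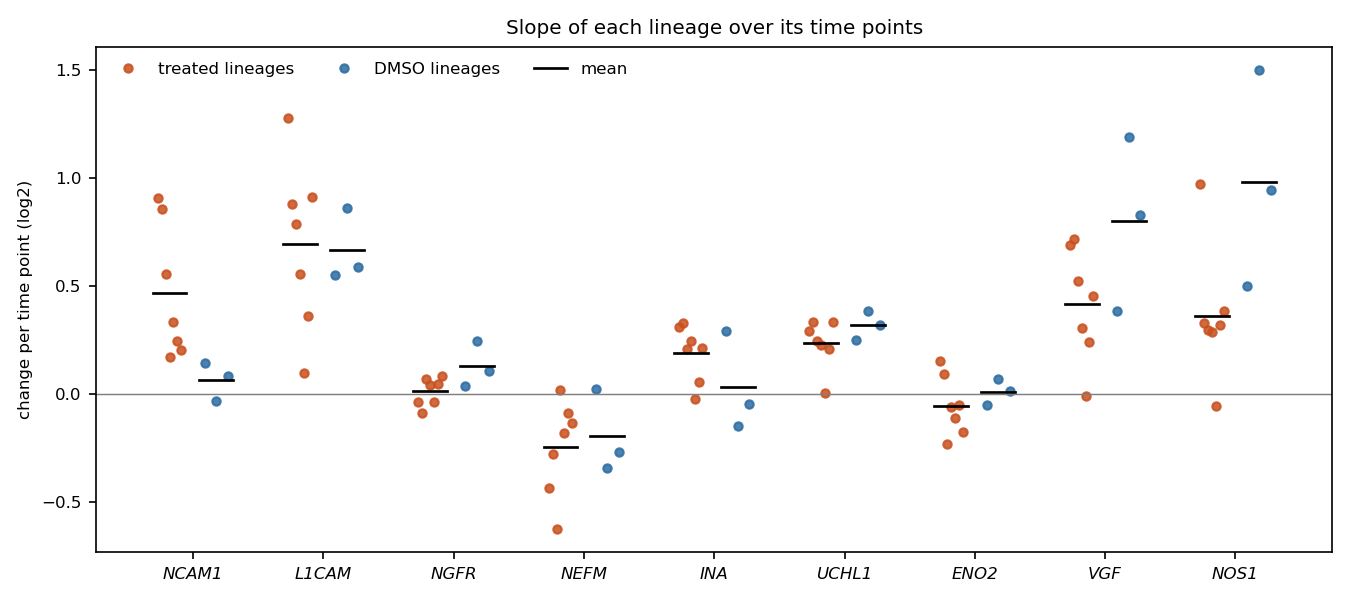
Slope of each lineage over its time points, in log2 units per time point, for the 9 tested genes; orange points are the 7 treated lineages, blue points the 3 DMSO lineages, and bars the mean of each arm. All treated points lie above 0 for NCAM1, L1CAM and UCHL1, and the highest DMSO points for VGF and NOS1, both R9, lie above every treated point.

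Cells kept in DMSO changed as well. UCHL1, VGF and NOS1 rose in all 3 lineages, and no gene of the 9 fell, where 9.87% of all genes were called, 4.55% upward and 5.31% downward. UCHL1 rose by 0.32 ± 0.06 per time point (SE, n = 3 lineages; limma adjusted p = 0.0231), VGF by 0.80 ± 0.20 (adjusted p = 0.0362) and NOS1 by 0.98 ± 0.23 (adjusted p = 0.0322). The medians of UCHL1 in DMSO were 316, 429, 1429, 1511, 1523, 2858, 2332 and 2703 at time points 1, 2, 4, 5, 6, 8, 9 and 10. L1CAM had a slope of 0.67 ± 0.37, positive in 3 of 3 lineages, that did not pass (adjusted p = 0.219), and NGFR one of 0.13 ± 0.04 (adjusted p = 0.059). With lineage as a block both passed, L1CAM at 0.65 (adjusted p = 1.78e-05) and NGFR at 0.12 (adjusted p = 0.00114). That fit takes its error from libraries and leaves out the spread of slopes between the 3 lineages. More of all genes passed in it too, as given in the last section. R9 at time point 5 went against the trend, with L1CAM at 7.14, UCHL1 at 655, ENO2 at 749 and NOS1 at 0.0325, the lowest value of that library. No DMSO slope passed without R9 or without R10, and only that of UCHL1 passed without R3, R4, R6 or R7. Without the 4 late DMSO libraries the slopes of UCHL1 and NOS1 passed, at 0.30 and 0.54, and that of VGF, at 0.30, did not (adjusted p = 0.106). For these DMSO refits the share of all genes called is not given here, so the calls are not set against it.

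The slopes of the arms were then compared directly. None of the 9 genes passed, nor did any of 14565 genes (0% called), with 1332 genes at an unadjusted p under 0.05. Of the 9, NCAM1 had a slope difference, treated minus DMSO, of 0.40 ± 0.17, NGFR of -0.12 ± 0.05 and NOS1 of -0.62 ± 0.27 (SE). Their adjusted p lay between 0.52 and 0.543 in limma. With lineage as a block, the NOS1 difference of -0.56 passed (adjusted p = 0.0396). That fit weighs the difference against the spread of libraries, not of lineage slopes, and more of all genes passed in it too. For NCAM1 the mean slope was 0.47 in treated and 0.07 in DMSO lineages, and without the 6 late libraries 0.40 in treated and 0.39 in DMSO lineages.

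Treated against DMSO lineages, compared over all time points with 1 value per lineage adjusted for time point, differed most in NCAM1. NCAM1 averaged 4.79 ± 0.57 log2 units in treated lineages and 2.96 ± 1.28 in DMSO lineages (SD, n = 7 and 3), and 6 of 7 treated lineages lay above all 3 DMSO lineages. Its log2 difference was 1.83 ± 0.48 (SE), with an adjusted p of 0.265 in limma. None of the 9 genes passed, and 0% of all genes were called, with 1968 at an unadjusted p under 0.05. The log2 difference was 0.76 ± 0.36 for L1CAM, 0.64 ± 0.31 for INA, 0.39 ± 0.40 for NOS1, 0.25 ± 0.11 for UCHL1 and 0.16 ± 0.36 for NEFM. It was -0.19 ± 0.15 for ENO2, -0.24 ± 0.12 for NGFR and -0.74 ± 0.40 for VGF.

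Leaving out DMSO lineage R8 changed the calls. Without it 5 of 9 genes passed, where 9.32% of all genes were called, 4.52% upward and 4.8% downward: NCAM1 at 2.52 (adjusted p = 0.00927), L1CAM at 1.33 (0.0392), INA at 1.16 (0.0225), UCHL1 at 0.44 (0.0415) and NGFR at -0.41 (0.0488). At single time points 6 calls were made among these genes without R8: NGFR at time points 9 and 10, NCAM1 and VGF at time point 9, and INA at time points 8 and 9. Of all genes, 3.56% were called at time point 8 without R8 (1.77% upward and 1.79% downward), 9.1% at time point 9 (4.42% upward and 4.68% downward) and 5.91% at time point 10 (2.49% upward and 3.42% downward). In R8 itself NCAM1 stayed between 6.14 and 43.3 at every time point, and VGF did not exceed 87.5. Without the 4 late DMSO libraries the NCAM1 difference was 1.23, and that of VGF was 0.30, opposite in sign to -0.74 with them.

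At single time points, NGFR at time point 9 was the only call among the 9 genes. It was lower in treated libraries, at 1722, 2263 and 3599 in R1, R4 and R5, against 4104, 10583 and 4665 in DMSO R8, R9 and R10. The groups did not overlap, and the log2 difference was -1.28 ± 0.34 (SE, limma over 72 libraries; adjusted p = 0.0422), where 1.33% of all genes were called, 0.542% upward and 0.79% downward. At time point 10 NGFR was 1405, 2056 and 3385 in treated R2, R5 and R6 against 2268 and 6759 in DMSO R8 and R10, ranges that overlap, with a difference of -0.87 ± 0.38 (adjusted p = 0.336). None of the 9 genes passed at time point 10, where 0.0618% of all genes were called, 0.0343% upward and 0.0275% downward, nor at time points 1, 4, 5, 6 and 8, where 0% were. The NGFR call (adjusted p from 0.00436 to 0.999 over its alternatives) was lost without time point 1, without DMSO R9, without treated R1, R3, R4, R6 or R7, and without either set of late libraries. Without the 4 late DMSO libraries, which leaves R8 as the only DMSO library at time point 9, its difference was -0.77.

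NCAM1 was higher in treated libraries at the last time points, short of the threshold. At time point 8 it ran from 23.4 to 103 in 6 treated libraries (median 56.0) against 43.3, 0.314 and 10.4 in DMSO R8, R9 and R10. At time point 9 it was 1134, 4.11 and 191 in treated R1, R4 and R5 against 21.6, 0.0274 and 10.6 in DMSO, with R4 inside the DMSO range. At time point 10 it was 1175, 35.0 and 34.1 in treated R2, R5 and R6 against 10.0 and 2.83 in DMSO R8 and R10, without overlap. The log2 differences were 2.69 ± 1.03, 4.00 ± 1.19 and 4.13 ± 1.33, and their adjusted p were 0.398, 0.0659 and 0.185. Without the 4 late DMSO libraries the difference at time point 9, set against R8 alone, was 2.20. Without the 2 late treated libraries it was 2.28 at time point 9 and 2.45 at time point 10.

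INA and VGF moved in opposite directions at these time points, also short of the threshold. INA at time point 9 was 270.1, 115 and 240.2 in treated libraries against 103, 47.3 and 40.3 in DMSO, without overlap, at a difference of 1.73 ± 0.75 (adjusted p = 0.247). VGF at time point 9 was 828.6, 40.5 and 79.7 in treated libraries against 80.2, 5374 and 1894 in DMSO, at -2.74 ± 1.33 (adjusted p = 0.319). Without the 4 late DMSO libraries the VGF difference at time point 9, set against R8 alone, was 0.79, and that of INA at time point 8 was -0.08 against 1.44 with them.

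**Figure D4:**
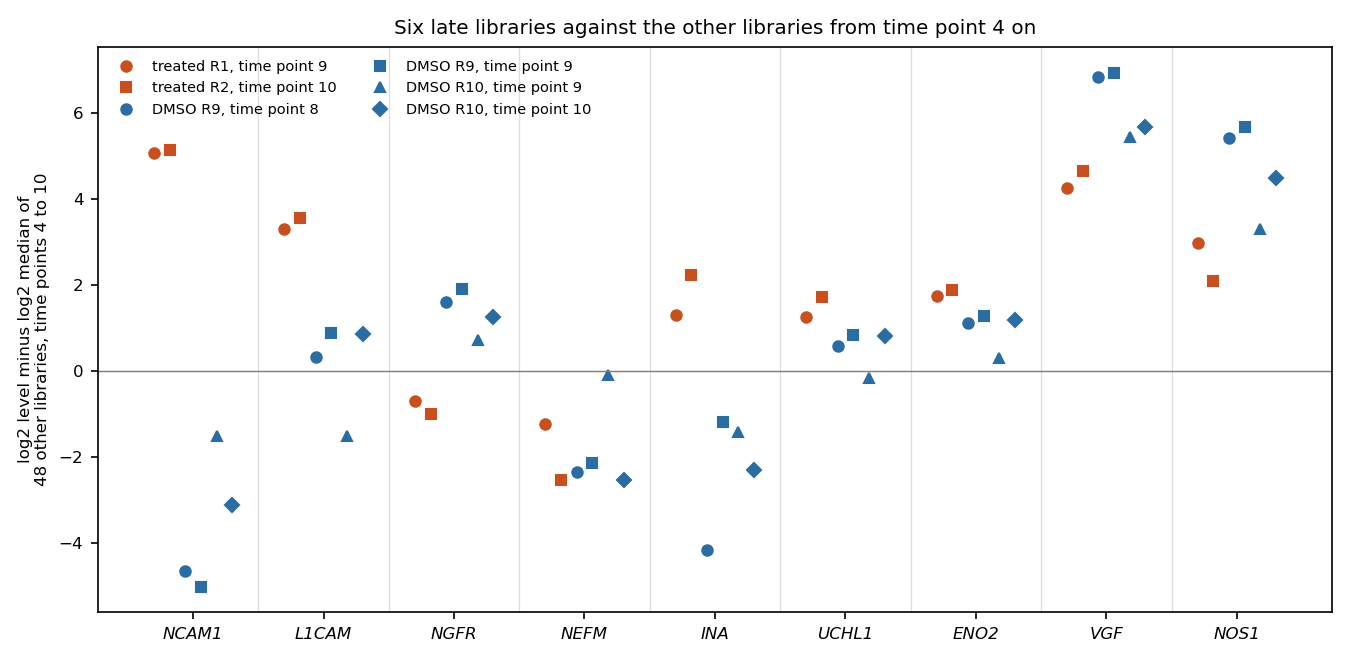
Log2 level of the 9 tested genes in the 6 late libraries that stood apart, minus the log2 median of the 48 other libraries from time points 4 to 10; orange symbols are treated R1 and R2, blue symbols DMSO R9 and R10. NCAM1 and INA lie above 0 in the treated and below 0 in the DMSO libraries, NGFR the reverse, and VGF and NOS1 lie above 0 in all 6.

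The late libraries of the arms shared some changes and differed in others. The last libraries of treated R1 and R2 held NCAM1 at 1134 and 1175, where the 48 other libraries from time point 4 on had a median of 32.6 and reached 191. L1CAM was 1968 and 2329.8 in them, against a median of 198 and a highest value of 617 in the 48. UCHL1 was 4569.7 and 6299 against a median of 1913 and a highest value of 3254, and ENO2 1473 and 1621 against 439 and 749. The values of these 4 genes lay above every one of the 48. VGF, at 828.6 and 1097 against a highest value of 145, and NOS1, at 933 and 507 against 464, did so too. NGFR, at 1722 and 1405, lay below the lowest of the 48, 1835.

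DMSO R9 at time points 8 and 9 and R10 at time points 9 and 10 shared the gain of VGF and NOS1 but not that of NCAM1. VGF was 5023, 5374, 1894 and 2229.6 in these libraries, and NOS1 5072, 6097, 1180.3 and 2665, all above the 48 others. NGFR was 8600.3, 10583, 4665 and 6759, and all but the 4665 lay above the highest of the 48, 5235. NCAM1 was 0.314, 0.0274, 10.6 and 2.83, and INA 5.14, 47.3, 40.3 and 21.1, against medians of 32.6 and 109 in the 48. ENO2, at 945, 1057, 539 and 994, was above the highest of the 48, 749, in 3 of the 4. UCHL1 was 2858, 3426, 1692 and 3333, and the 3426 and 3333 lay above the highest of the 48, 3254. L1CAM, at 247, 364, 68.3 and 361, lay within the range of the 48, 7.14 to 617. DMSO R8, sampled at the same time points, had VGF at 70.9, 80.2 and 35.6 and NOS1 at 207, 269.8 and 93.8 at time points 8, 9 and 10.

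Other lists moved in the same libraries. In the last R1 and R2 libraries the summed level of 12 Ewing identity genes was 39520.1 and 45594, against 61911 to 90993 in the other treated libraries. CCND1 and BCL11B had the highest medians of that list over all libraries, 41936 and 16027, so the sum follows mainly them. FLI1 had a median of 1086. The sum of 13 muscle and fibroblast markers was 76868 and 90378, against 18494 to 50464, with MYOD1 and MYOG near 0. The sum of 16 neurofilament and neuronal cytoskeleton genes, a list without the 10 genes, was 46307 to 48194 against 16428 to 26554. That of 23 secretory granule and synaptic vesicle genes was 12659 to 14027 against 5276 to 8119. The list of 16 includes VIM, NES and SYNM, and the genes that make up most of either sum are not given here. The sum of 20 neural adhesion genes, 7157 to 7782, lay within the range of the other treated libraries, 5385 to 8861. The mitochondrially encoded genes summed to 47822 and 58253, below all 47 other treated libraries, and to 60138 to 93599 in the 4 late DMSO libraries against 73209 to 378999 in the other DMSO libraries. In the 4 late DMSO libraries the sum of 9 epithelial markers was 463 to 1494, against 45.1 to 378 in the other DMSO libraries, with EPCAM and CDH1 near 0. The sum of 8 blood cell markers was 339 to 1075 against a median of 155 in the other DMSO libraries, nearly all of it CD79A, and that of the muscle and fibroblast markers 13079 to 21363 against 20201 to 37920. Their Ewing identity sum, 77931 to 85840.2, lay within the range of the other DMSO libraries, 64649 to 90578. The part of these lists in the levels of the 10 genes was not tested.

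After VDC and after EC were compared within the treated lineages, with lineage as a block and a linear time term. None of the 9 genes passed, and 0% of all genes were called, with 2118 at an unadjusted p under 0.05. NEFM was higher after VDC than after EC by 1.03 ± 0.36 log2 units (limma adjusted p = 0.164), and UCHL1 lower by a log2 difference of -0.45 ± 0.18 (adjusted p = 0.236). The other 7 genes had an adjusted p of at least 0.363. The same contrast between odd and even time points in DMSO, where no drug was given, was -0.09 ± 0.50 for NEFM and -0.05 ± 0.25 for UCHL1. The difference of the contrast between arms was 1.12 ± 0.62 for NEFM (adjusted p = 0.914), and 0% of all genes passed that test, with 685 at an unadjusted p under 0.05.

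Related genes were followed as lists without the 10 genes. In treated lineages 39.4% of all genes were called for their slope, 15.6% upward and 23.8% downward. In DMSO lineages the share was 9.87%, with 4.55% upward and 5.31% downward. Of 23 secretory granule and synaptic vesicle genes 15 were tested, and in treated lineages 8 rose and 1 fell over time. Their median slope was 0.08 log2 units per time point, against -0.01 over all genes. PAM, which amidates peptides, rose by 0.66 ± 0.17 per time point (limma adjusted p = 0.0139), INSM1, a transcription factor of neuroendocrine cells, by 0.52 ± 0.09 (adjusted p = 0.00325), the vesicle calcium sensor SYT1 by 0.47 ± 0.07 (adjusted p = 0.00255) and the prohormone convertase PCSK1 by 0.36 ± 0.09 (adjusted p = 0.012). In DMSO lineages SYT1 rose, by 0.52 ± 0.11 (adjusted p = 0.0283), the membrane fusion protein SNAP25 fell, by 0.20 ± 0.05 (adjusted p = 0.0362), and the other 13 did not pass.

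Of 20 neural adhesion genes 13 were tested, and in treated lineages 4 rose and 3 fell, where 39.4% of all genes were called. CNTN1 rose by 0.34 ± 0.05 (limma adjusted p = 0.00231), NRCAM, a relative of L1CAM, by 0.27 ± 0.04 (adjusted p = 0.00235), ALCAM by 0.15 ± 0.04 (adjusted p = 0.0154) and CADM1 by 0.14 ± 0.04 (adjusted p = 0.0217). In DMSO lineages NRCAM (0.33 ± 0.06) and OPCML (0.27 ± 0.07) rose and LSAMP fell by 0.15 ± 0.04. Of 11 tested neurofilament and cytoskeleton genes 5 rose and 1 fell in treated lineages. MAP1B, a microtubule protein of growing axons, rose by 0.46 ± 0.06 (adjusted p = 0.00206), and DPYSL3 fell by 0.25 ± 0.09 (adjusted p = 0.0436). DPYSL5 rose by 0.29 ± 0.10 and the intermediate filament gene SYNM by 0.17 ± 0.04. In DMSO lineages 1 of the 11 rose, NES, by 0.18 ± 0.04.

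Of 7 tested genes of neurotrophins, their receptors and partners, 1 rose and 2 fell in treated lineages. The share called was 39.4% over all genes. BEX1 rose by 0.21 ± 0.05, and the sorting receptors SORCS2 and SORT1 fell by 0.14 ± 0.03 and 0.05 ± 0.02. Among 8 paralogs and partners of the 3 enzymes, ENO3, the muscle enolase, fell by 0.18 ± 0.03 and NOS1AP, an adaptor of NOS1, by 0.10 ± 0.02 in treated lineages. In DMSO lineages NOS3, the endothelial synthase, rose by 0.33 ± 0.08, and the other 7 did not pass.

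Likeness of pattern was described by Pearson's r of log2(value + 1) over 72 libraries that share lineages, time points and normalization, so it carries no test. L1CAM was closest to SGMS2 (r = 0.945), TNC (0.933) and CAVIN1 (0.920), and without the 6 late libraries these were 0.938, 0.945 and 0.919. NCAM1 was closest to SRPX (0.861), PCDH10 (0.852) and SDC2 (0.846), and 0.796, 0.774 and 0.811 without the 6. VGF was closest to GDF6 (0.910), RUBCNL (0.901) and SLC35F2 (0.887), and 0.790, 0.734 and 0.720 without them. NOS1 was closest to SLCO4A1 (0.858), TGM2 (0.856) and JAK3 (0.839), and 0.797, 0.799 and 0.780 without them.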

How the data were processed

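RNA-seq libraries of the CHLA-9 line were aligned with STAR and counted with featureCounts on GRCh38, per the labels' protocols and the submitters' processing notes, which give no versions and no setting for strand. The deposited signal values are gene counts that the authors quantile-normalized, by the name of the table and by its equal column totals within an arm, in a way not given in the sources used here, so the depth of each library and its counting error are unknown. Groups, lineages and time points came from the labels, and every column of the table was matched to a sample.

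Values were tested as log2(value + 1) for genes with a mean of at least 10 over all libraries, with limma 3.58.1 (trend) in R 4.3.3, the data.table package (version 1.17.8), Python 3.11.15, pandas 2.3.3 and matplotlib 3.10.9. Benjamini-Hochberg adjustment ran over all 14565 genes tested, with a threshold of 0.05. Each lineage gave 1 slope and 1 level adjusted for time point; 7 treated lineages were set against 3 DMSO lineages. Single time points shared the spread of 72 libraries, and VDC was set against EC with lineage as a block. The comparison of time points 4 and 1, on paired differences, was added after the data were seen. Fold changes are on the log2(value + 1) scale, which understates the change of low genes. The scripts were tested on simulated data.

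The pairing comes from the labels, by which libraries of 1 lineage number are the same culture over time. Deviations of libraries of the same lineage from their arm and time point means correlated at a mean r of 0.0814 (219 pairs), against -0.0152 for other lineages of the arm (1050 pairs).

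The 10 genes and all lists were chosen with earlier results of these data known. All 10 are named; from each list of related genes the text names at most 4 past the threshold with the largest absolute slope in each arm; for NCAM1, L1CAM, VGF and NOS1 it names the 3 genes of highest r. Promoters were printed only where the sequences used here allow it. The DMSO slopes of the neurotrophin list are not reported here. Alternatives were the pseudocount, the filter, 1 quantile distribution for all libraries, lineages, time points or late libraries left out, the lineage block, separate fits per time point and plain lineage means.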

Additional observations from a re-analysis of the deposited data

Results flagged for a closer look

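In each of the 81 groups of 4 to 10 values examined, the highest or the lowest value was compared with its nearest neighbour over the range of the group (Dixon's 95% value), and 11 groups held a value that stood apart, where chance gives about 1 in 20, or 4.05 groups. Of these, 9 were values of treated lineage R1. Smaller groups were left out, so no DMSO group and no treated group of time point 9 or 10 was examined.

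At time point 1, R1 had ENO2 at 525 (695 to 792 in the other treated lineages), NGFR at 2034 (2332 to 2519), NOS1 at 4.18 (22.9 to 37.2) and UCHL1 at 1135 (482 to 647). At time point 3, R1 had L1CAM at 0.0271 (37.1 to 105). At time point 4, R1 had UCHL1 at 627 (2056 to 3254) and VGF at 4.25 (31.6 to 112). Over all time points R1 had the lowest adjusted NGFR level among treated lineages, 11.04 log2 units (11.38 to 11.53), and the steepest NOS1 slope, 0.97 per time point (-0.05 to 0.39).

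Outside R1, treated R2 at time point 5 had NGFR at 5235 (2002 to 2919.9). Treated R5, with no library before time point 3, had a UCHL1 slope of 0.0042 per time point (0.21 to 0.34).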

How the results depend on the processing

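Among 961 recomputed values of single genes, 803 kept their direction and their side of the threshold, 92 lost a call, 31 gained one and 35 changed sign. Of those 35, 1 had passed, the NEFM slope in treated lineages over time points 4 to 10. Counts below are of the 9 tested genes, and the cause of a change was not tested. Depth is unknown, so counting error could not be weighed.

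Leaving out 1 lineage gave 0 to 5 calls over all time points, 2 to 7 for treated slopes and 0 to 4 for DMSO slopes. It gave 0 to 6 calls at single time points and 4 to 8 for time point 4 minus 1. These counts are not set against the share of all genes called in each refit. With 1 lineage out, the NEFM level difference ran from -0.23 to 0.63, the DMSO slope of INA from -0.0955 to 0.13 and of ENO2 from -0.017 to 0.045, and the INA difference at time point 8 from -0.078 to 2.75.

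With the replicate block the DMSO slopes gave 5 calls against 3, and the slope difference 1 against 0. Over all genes these were 5808 against 1437 and 321 against 0. The block gave 7 treated slopes against 6 and changed no other call. For slopes this fit takes its error from libraries, not from the spread of slopes between lineages. Without the block the step gave 8 calls, as with it. Without the filter on low values the calls were 1 for DMSO slopes, 0 at single time points and 5 for the step against 8. Single time points gave 2 calls at pseudocount 10, and 0 with separate fits, without time point 1, without the 4 late DMSO libraries and without the 2 late treated libraries. For these counts, from the step without the block onward, the share of all genes called is not given here. Treated and DMSO slopes gave 0 calls each without time point 1 and over time points 4 to 10, where over all genes 426 and 0 treated slopes passed against 5741.

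Signs also changed as follows. Without time point 1, the treated slope was -0.0071 for NGFR and 0.0029 for ENO2, and the DMSO slope -0.081 for NCAM1 and -0.0058 for INA. Over time points 4 to 10, the treated slope was -0.023 for NGFR, 0.0064 for NEFM and 0.033 for ENO2, and the DMSO slope -0.47 for NCAM1, 0.030 for NEFM and -0.17 for INA. Without the 4 late DMSO libraries, the level difference was 0.058 for NGFR, -0.16 for NEFM and 0.30 for VGF, the DMSO slope -0.00098 for NGFR and -0.073 for ENO2, the NGFR slope difference 0.015, INA at time point 8 -0.078 and VGF at time point 9, with 1 DMSO library left, 0.79. Without all 6 late libraries, an added choice, the level difference was 0.092 for NGFR, -0.053 for NEFM and 0.12 for VGF, the DMSO slopes of NGFR and ENO2 were again -0.00098 and -0.073, and the NGFR slope difference 0.036. Over time points 1 to 7, the level difference was 0.13 for NGFR and 0.36 for VGF, the DMSO slope -0.016 for NGFR and -0.10 for ENO2, and the slope difference -0.081 for NCAM1 and 0.080 for NGFR. After EC only, the NEFM level difference was -0.31.

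Over their alternatives, the adjusted p of limma ran from 0.0021 to 0.777 for the treated NOS1 slope, 1.78e-05 to 0.554 for the DMSO L1CAM slope, 0.00114 to 0.986 for the DMSO NGFR slope and 0.0396 to 1.00 for the NOS1 slope difference. It ran from 7.59e-08 to 0.313, 0.00837 to 0.982 and 0.0096 to 0.977 for the treated slopes of L1CAM, NEFM and ENO2. For the level difference it ran from 0.00927 to 0.922 for NCAM1.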
